A study of Mus musculus with 6 samples.

Results

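The machinery that brings new proteins into the endoplasmic reticulum and attaches N-glycans to them was followed as 35 genes in mouse germinal centre B cells made in culture, with and without inhibition of GSK3. The 35 genes are a list by function, chosen with earlier results of these data known. There are 7 for the signal recognition particle and its receptor, 11 for the translocon, 5 for signal peptidase, 9 for the oligosaccharyltransferase and 3 for making its lipid-linked sugar donor. All 35 were found among the 23850 gene entries of each library, and all 35 were among the 10096 tested genes, those whose FPKM averaged at least 1 over the 6 libraries. FPKM is the number of sequenced fragments of a gene scaled for transcript length and library total, so levels of different genes can be set side by side.

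Messenger RNA was sequenced from 3 CHIR99021 cultures and 3 DMSO cultures of cells from C57BL/6J mice of wild type genotype. In all 6, follicular B cells that were naive had been kept with IL-4 (1 ng/ml) over CD40L-expressing feeder cells for 4 days, and were then given IL-21 (10 ng/ml) over feeder cells for 36 h. During those 36 h, CHIR99021 cultures held 3 uM of that GSK3 inhibitor and DMSO cultures held the solvent, beside which the labels print the same 3 uM. The labels describe cultured cells that model a germinal centre, not cells from one, and give neither how the treated cells were purified nor the age of the mice. The series calls the design a biological triplicate.

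A protein bound for secretion or for a membrane carries a signal sequence, which the signal recognition particle binds as it leaves the ribosome. The particle docks at its receptor, the chain is threaded through the Sec61 channel, signal peptidase cuts the signal sequence off, and the oligosaccharyltransferase moves a preassembled glycan from the lipid dolichol to asparagines of the chain. Antibody heavy chains and many B cell surface receptors take this route, and cells that become antibody-secreting plasma cells are known to enlarge it, in part through the transcription factor XBP1.

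With CHIR99021, 21 of the 35 genes rose and 1, Tusc3, fell, while 13 did not pass the test (limma over all tested genes, adjusted p under 0.05). Of all 10096 tested genes, 21.4% passed in either direction, 8.13% higher and 13.3% lower, so that 60.0% of the list was called higher against a background of 8.13%. The list was chosen with earlier results of these data known, so the shares set against the background describe it and are not a test of it. Folds of the 21 genes lay between 1.24 (Srp19) and 1.84 (Srprb), and no log2 change reached 1. The median log2 change was 0.41 over the 35 genes and -0.04 over all tested genes, and 30 of the 35 genes had a log2 change above 0, against 45.2% of all tested genes. The groups did not overlap for 25 of the 35 genes with CHIR99021 higher, against 17.0% of all tested genes, and for 1 with CHIR99021 lower, against 23.1%. The authors' confidence limits, which cover a single library each, lay apart between the groups for 13 genes with CHIR99021 higher and 0 with CHIR99021 lower, against 4.32% and 7.76% of all tested genes. At the median of tested genes these limits lay 12.5% to 15.4% of the level away, against 3.14% to 5.51% for Sec61a1 and 19.2% to 28.2% for Sec61a2. Narrower limits part more easily at the same fold, and the background was not matched for this. In these bulk cultures, more RNA per cell and more cells of a type rich in such RNA cannot be told apart.

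**Figure D1:**
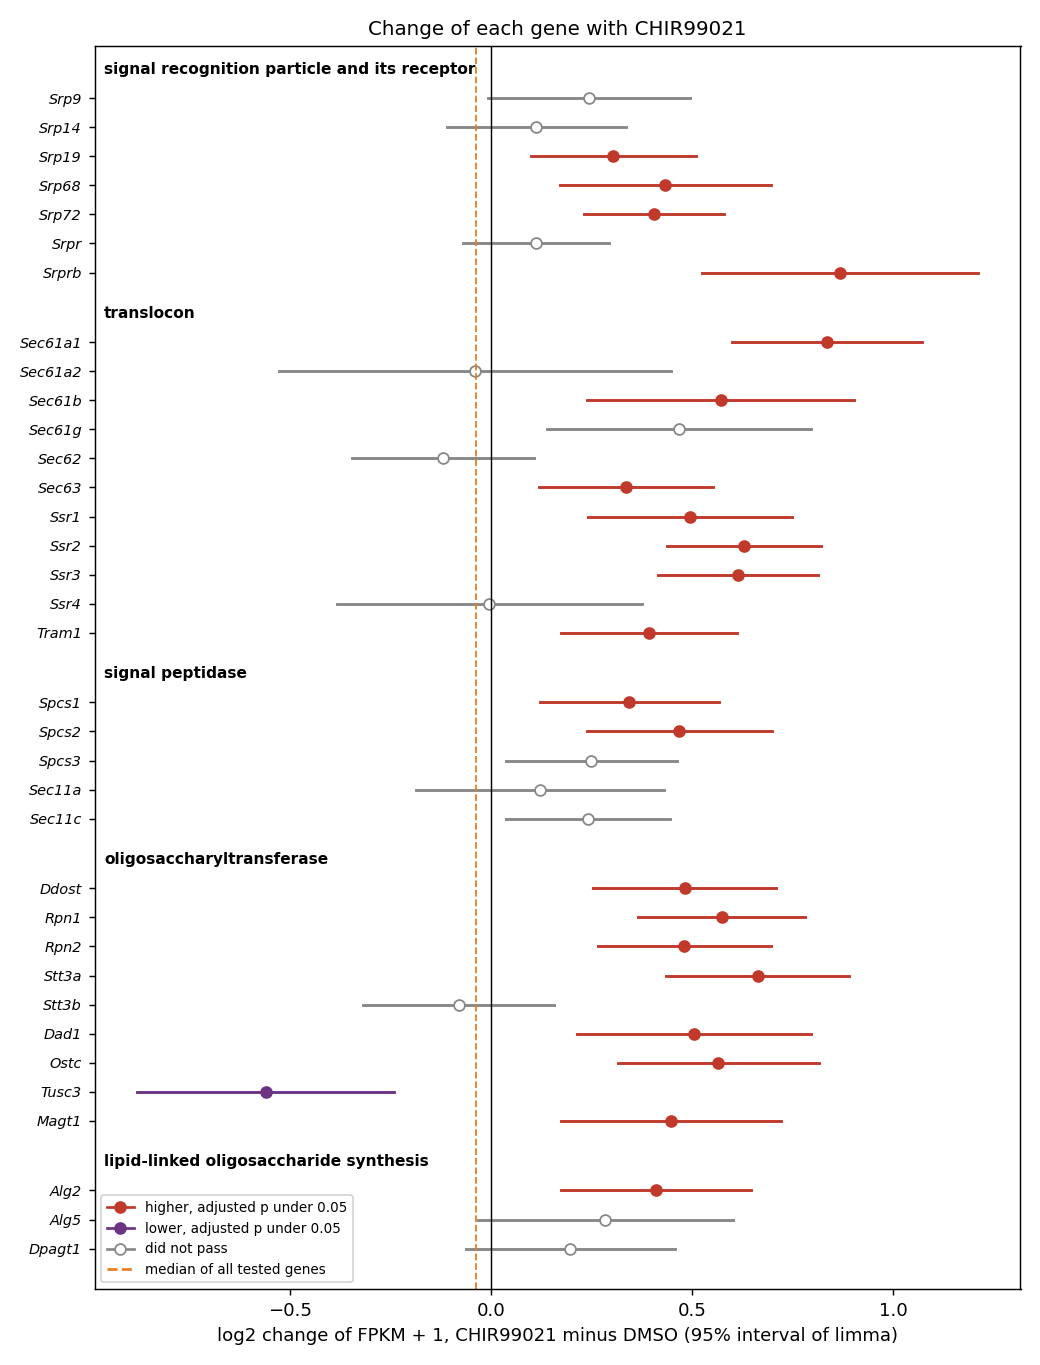
Log2 change of FPKM + 1 (CHIR99021 minus DMSO) of each of the 35 genes on the horizontal axis, with the 95% interval of limma as a bar, grouped by role down the page; the dashed line is the median of all tested genes. Filled points passed the test: 21 lie to the right, between 0.30 and 0.87, and Tusc3 lies to the left at -0.56.

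Summed over the 35 genes, levels were 3528, 3268 and 3747 FPKM in CHIR99021 libraries 1, 2 and 3, against 2705, 2409 and 2827 FPKM in DMSO libraries 1, 2 and 3, a sum 1.33-fold higher. Every CHIR99021 library lay above every DMSO library, and in both groups library 2 was the lowest and library 3 the highest. Libraries that share a number also deviated together over all tested genes, so the same test was run with the replicate number as a block. With that block all 21 genes were again called higher and Tusc3 lower, and Srp9, Sec61g, Spcs3 and Sec11c were added, making 25 higher and 1 lower against a background of 18.4% higher and 24.4% lower. With other scalings between libraries, 23 of the 35 genes were higher and 1 lower with upper-quartile scaling (11.8% and 10.8% of all tested genes), 23 and 1 with quantile normalization (12.2% and 11.6%), and 16 and 1 with all libraries brought to one sum (4.43% and 11.8%). The count of genes called also depended on single libraries. Without CHIR99021 replicate 3, 8 of the 35 genes were higher and 0 lower (background 3.25% and 7.26%), and without CHIR99021 replicate 1, 13 were higher and 0 lower (6.13% and 9.96%). The 8 genes called higher whichever single library was left out were Srprb, Srp72, Sec61a1, Ssr2, Ssr3, Rpn1, Stt3a and Ostc, while the other 13 lost their call in at least 1 of these 6 fits, Sec63 in all 6. Srp19, Spcs1 and Alg2 kept it in only 1 of the 6, and Srp68, Sec61b and Magt1 in 2. Tram1 kept it in 3, Dad1 and Ssr1 in 4, and Ddost, Rpn2 and Spcs2 in 5.

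**Figure D2:**
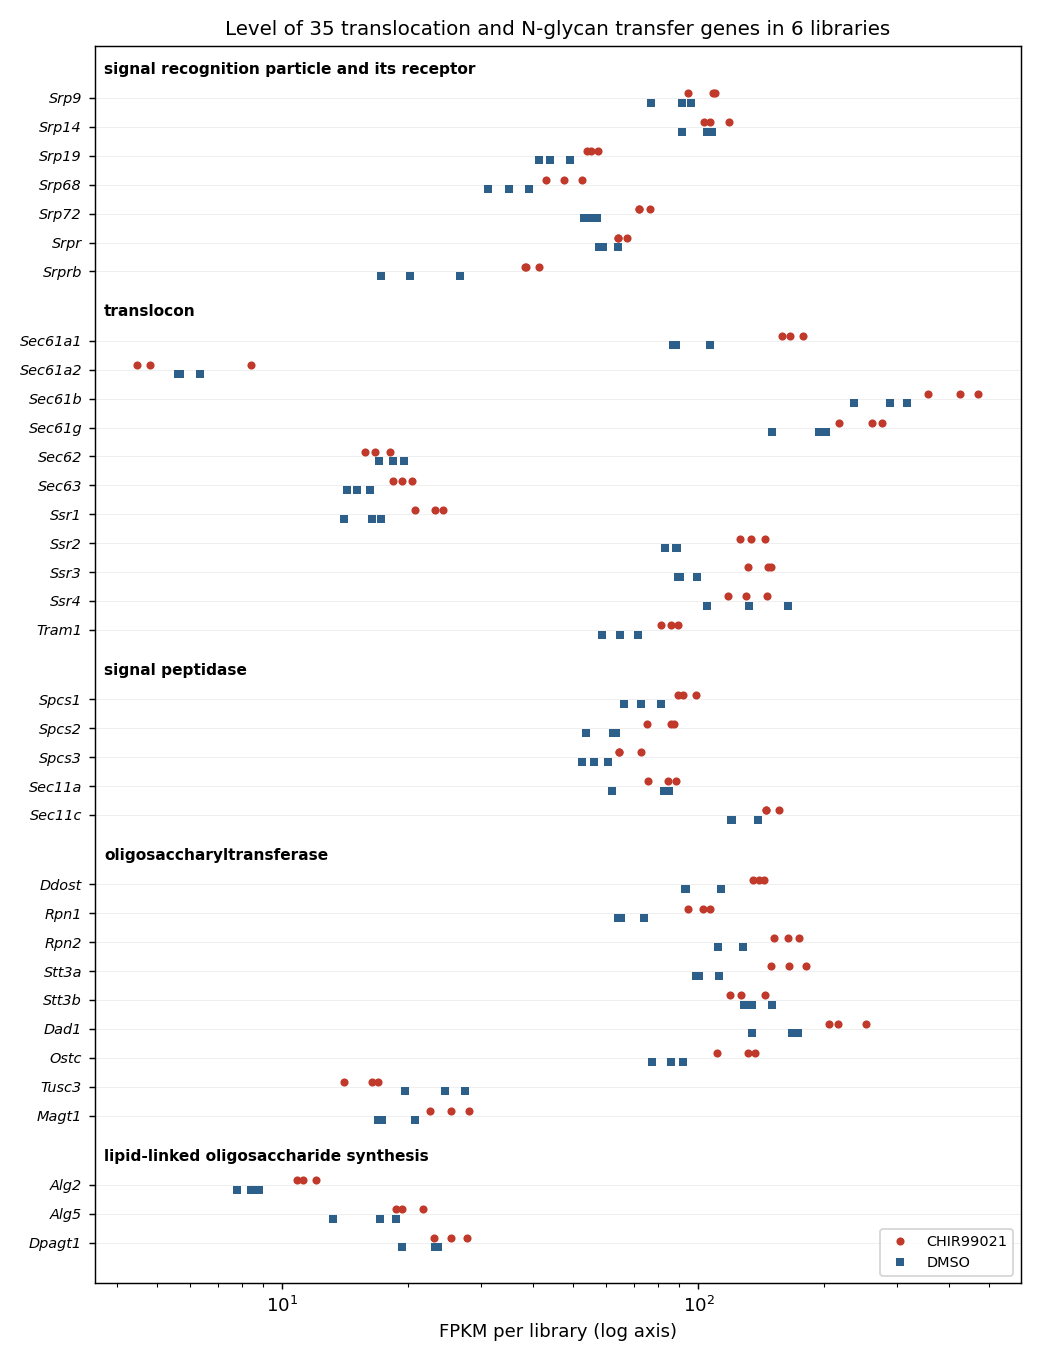
Level of each gene in each of the 6 libraries, in FPKM on a log axis, with CHIR99021 libraries as circles above DMSO libraries as squares, grouped by role. Srprb, Sec61a1, Ssr2, Ssr3 and Stt3a show 3 circles to the right of 3 squares, Tusc3 shows the reverse, and the symbols of Ssr4, Sec62, Stt3b and Sec61a2 overlap.

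Upstream sequence was read for the 24 genes with an entry in RefSeq's promoter table for GRCm38.p6, the build also called mm10. XBP1 and ATF6 are known to bind an endoplasmic reticulum stress element, which is CCAAT and CCACG held 9 bases apart, so these letters were looked for on both strands of the 250 bases before each start. Srprb is shown as the gene with the largest change, Stt3a and Stt3b as catalytic subunits whose order of level differed between the groups, and Sec61b because the same stretch leads, on the other strand, into Alg2. Capitals mark CCACG, or CGTGG where it lies on the other strand. Sequences run 5′ to 3′ in each gene's direction, from chr9:103202066-103202315 (- strand) for Srprb, chr4:47474411-47474660 (+ strand) for Sec61b, chr9:36767623-36767872 (- strand) for Stt3a and chr9:115310469-115310718 (- strand) for Stt3b.
Srprb: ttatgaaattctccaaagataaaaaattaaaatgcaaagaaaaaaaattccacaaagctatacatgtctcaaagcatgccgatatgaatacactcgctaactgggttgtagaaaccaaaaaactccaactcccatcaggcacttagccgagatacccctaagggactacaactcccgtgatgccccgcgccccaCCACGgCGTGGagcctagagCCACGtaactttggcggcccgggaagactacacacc
Sec61b: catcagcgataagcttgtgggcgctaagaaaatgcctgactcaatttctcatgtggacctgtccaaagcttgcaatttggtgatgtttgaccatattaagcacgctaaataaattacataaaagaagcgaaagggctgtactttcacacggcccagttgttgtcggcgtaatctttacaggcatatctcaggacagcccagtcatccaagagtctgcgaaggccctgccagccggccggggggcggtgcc
Stt3a: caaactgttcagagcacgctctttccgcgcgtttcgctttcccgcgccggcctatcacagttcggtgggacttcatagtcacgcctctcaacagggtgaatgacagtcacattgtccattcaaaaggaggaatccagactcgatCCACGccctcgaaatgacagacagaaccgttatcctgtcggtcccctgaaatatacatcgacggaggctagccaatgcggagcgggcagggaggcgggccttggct
Stt3b: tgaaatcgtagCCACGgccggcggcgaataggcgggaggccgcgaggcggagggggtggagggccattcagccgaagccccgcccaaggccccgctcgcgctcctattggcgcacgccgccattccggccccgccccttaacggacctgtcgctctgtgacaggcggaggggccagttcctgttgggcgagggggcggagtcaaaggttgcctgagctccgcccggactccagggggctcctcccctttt

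Srprb held 3 copies of CCACG, whose first bases lie 56, 50 and 36 bases before the start, Stt3a and Stt3b held 1 each, 106 and 239 bases before the start, and Sec61b held 0. Over the 24 genes, 13 (54.2%) held CCACG, made up of 8 of the 14 that were called higher (57.1%) and 5 of the 10 that were not called. Among the 7604 tested genes with an entry, 48.2% held it, and among all 27025 entries 31.0% did, so the share in the list lies near that of tested genes. The whole element with its spacer of 9 bases was in 0 of the 24 sequences, against 0.171% of tested genes, and the related ATTGG and CCACG held 1 base apart was also in 0, against 0.0789%. TGACGTG, a further XBP1 motif, was in 1, Srpr (4.17% of the 24, against 2.97% of tested genes). CCACG lies inside both longer elements, so these counts are not separate. They describe letters in a short window and say nothing of binding.

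Targeting starts with the signal recognition particle, an RNA with several proteins, and its receptor. Of these 7 genes, 4 rose (57.1%) and 0 fell, against 8.13% and 13.3% of all tested genes. The median log2 change of the 7 was 0.30, against -0.04 over all tested genes. The largest change of the 35 genes was that of Srprb, the membrane-anchored beta subunit of the receptor (chr9:103188033-103202065). Srprb had 38.4, 38.2 and 41.4 FPKM in CHIR99021 libraries 1, 2 and 3, against 17.3, 20.3 and 26.7 FPKM in DMSO libraries. It was 1.84-fold higher (log2 change 0.87 ± 0.15 SE, limma adjusted p = 0.00629), and the CHIR99021 libraries lay closer to each other than the DMSO libraries did. The alpha subunit Srpr, which binds the particle, had 64.0, 64.1 and 67.4 FPKM in CHIR99021 libraries, against 57.8, 58.9 and 64.1 FPKM in DMSO libraries. Its groups overlapped slightly, and it did not pass the test (log2 change 0.11, 95% interval -0.07 to 0.29, limma adjusted p = 0.350). Mean Srpr was above mean Srprb in both groups, at 65.2 ± 1.93 against 39.3 ± 1.77 FPKM with CHIR99021 and at 60.3 ± 3.40 against 21.4 ± 4.80 FPKM with DMSO (SD, n = 3 each). Srpr shares 39 bases with Fam118b on the opposite strand, and no source used here gives the strand setting of the counting.

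Within the particle, Srp68 and Srp72 form a pair that binds the same domain of the RNA as the subunit that holds the signal sequence. Srp72 had 71.8, 72.0 and 76.4 FPKM in CHIR99021 libraries, against 57.1, 55.3 and 53.0 FPKM in DMSO libraries (1.33-fold higher, log2 change 0.41 ± 0.07 SE, limma adjusted p = 0.00851). Srp68 had 43.1, 52.5 and 47.6 FPKM in CHIR99021 libraries, against 31.2, 35.1 and 39.1 FPKM in DMSO libraries (1.36-fold higher, limma adjusted p = 0.0312). Both partners were higher by a similar factor, with no overlap between groups. With 1 library left out, Srp72 was called in all 6 fits, Srp68 in 2 and Srp19 in 1. Srp19, which binds the RNA early in assembly, had 54.0, 55.1 and 57.4 FPKM in CHIR99021 libraries, against 49.1, 44.1 and 41.3 FPKM in DMSO libraries (1.24-fold higher, limma adjusted p = 0.0455). Srp9 and Srp14, the pair that slows the ribosome while the particle is bound, were the most abundant of the particle's genes and did not pass the test. Srp9 averaged 104 ± 8.43 FPKM with CHIR99021 and 88.1 ± 9.92 with DMSO (limma adjusted p = 0.152, or 0.0124 with the block), and Srp14 109 ± 7.82 and 101 ± 8.89 (0.452, or 0.152 with the block).

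Of the 11 translocon genes, 7 rose (63.6%) and 0 fell, against 8.13% and 13.3% of all tested genes. The median log2 change of the 11 was 0.47, against -0.04 over all tested genes. The summed level of the 11 was 1396 ± 126 FPKM with CHIR99021 and 990.3 ± 109 FPKM with DMSO (SD, n = 3 each), which is 1.41-fold higher. Sec61a1, which encodes the pore of the channel (chr6:88503607-88518800), had 166, 159 and 178 FPKM in CHIR99021 libraries, against 86.8, 88.2 and 106 FPKM in DMSO libraries. It was 1.79-fold higher (log2 change 0.83 ± 0.10 SE), and its adjusted p of 0.00169 by limma was the smallest of the 35 genes. Sec61b, a small subunit at the side of the pore, was the gene of the list with the highest level in every library, at 425, 355 and 471 FPKM in CHIR99021 libraries, against 289, 236 and 316 FPKM in DMSO libraries (1.49-fold higher, log2 change 0.57 ± 0.14 SE, limma adjusted p = 0.0274). Library 2 was the lowest of both groups, and within each replicate number the log2 change was 0.56, 0.59 and 0.57. The call of Sec61b was kept in 2 of the 6 fits with 1 library left out. Sec61g, the third subunit, had 261, 217 and 277 FPKM in CHIR99021 libraries, against 195, 149.9 and 203 FPKM in DMSO libraries. The groups did not overlap, and Sec61g missed the threshold without the block (log2 change 0.47 ± 0.14 SE, limma adjusted p = 0.0521) and passed it with the block (0.000714).

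Sec61a2, the other pore gene, was the gene of the list with the lowest level in every library, at 4.82, 8.43 and 4.47 FPKM in CHIR99021 libraries, against 5.69, 6.35 and 5.62 FPKM in DMSO libraries. The DMSO libraries lay inside the range of the CHIR99021 libraries (log2 change -0.04, 95% interval -0.53 to 0.45, limma adjusted p = 0.924). Sec63 and Sec62 assist the channel, Sec63 by recruiting the chaperone BiP. Sec63 had 18.5, 19.4 and 20.5 FPKM in CHIR99021 libraries, against 14.3, 15.1 and 16.2 FPKM in DMSO libraries (1.28-fold higher, limma adjusted p = 0.0391, a call lost whenever 1 library was left out). Sec62 had 18.1, 15.8 and 16.7 FPKM in CHIR99021 libraries, against 19.7, 17.1 and 18.4 FPKM in DMSO libraries (log2 change -0.12, 95% interval -0.34 to 0.11, limma adjusted p = 0.432). Sec62 was thus lower in 3 of 3 replicate numbers, with groups that overlapped and no call in either fit. Tram1, which helps some signal sequences enter the channel, had 89.1, 81.4 and 85.8 FPKM in CHIR99021 libraries, against 71.6, 58.6 and 64.9 FPKM in DMSO libraries (1.31-fold higher, limma adjusted p = 0.0232).

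Ssr1, Ssr2, Ssr3 and Ssr4 encode the subunits of the translocon-associated protein complex, which sits beside the channel and assists some of its substrates. Ssr2 had 133, 126 and 144 FPKM in CHIR99021 libraries, against 88.3, 82.9 and 88.7 FPKM in DMSO libraries (1.55-fold higher, log2 change 0.63 ± 0.08 SE, limma adjusted p = 0.00225). Ssr3 had 149, 132 and 147 FPKM in CHIR99021 libraries, against 99.0, 89.5 and 90.0 FPKM in DMSO libraries (1.54-fold higher, limma adjusted p = 0.00288). Ssr1 was lower in level than these partners, at 20.8, 23.2 and 24.4 FPKM in CHIR99021 libraries, against 14.1, 16.4 and 17.2 FPKM in DMSO libraries (1.43-fold higher, limma adjusted p = 0.0174). In all 3 genes the lowest CHIR99021 library stood above the highest DMSO library. Ssr4 had 146, 118 and 130.4 FPKM in CHIR99021 libraries, against 164, 105 and 132 FPKM in DMSO libraries. Its groups overlapped fully, and the largest and the smallest of its 6 values were both DMSO libraries (log2 change 0.00, 95% interval -0.38 to 0.37, limma adjusted p = 0.989).

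Signal peptidase had 2 of 5 genes higher (40.0%) and 0 lower, and 4 of 5 higher with the block. Of all tested genes, 8.13% were higher without the block and 18.4% with it. Spcs2 had 85.8, 75.4 and 87.3 FPKM in CHIR99021 libraries, against 62.2, 53.6 and 63.2 FPKM in DMSO libraries (1.39-fold higher, log2 change 0.47 ± 0.10 SE, limma adjusted p = 0.0145). Spcs1 had 91.9, 89.1 and 98.6 FPKM in CHIR99021 libraries, against 72.7, 66.3 and 81.2 FPKM in DMSO libraries (1.27-fold higher, limma adjusted p = 0.0391). Both are accessory subunits, and the groups of both were apart. With 1 library left out, Spcs2 was called in 5 of the 6 fits and Spcs1 in 1. Spcs1 shares 274 bases with Glt8d1 on the opposite strand, which averaged 3.76 FPKM with CHIR99021 and 4.40 FPKM with DMSO. Spcs3, the accessory subunit that catalysis needs, averaged 67.3 ± 4.92 FPKM with CHIR99021 and 56.4 ± 4.15 FPKM with DMSO (limma adjusted p = 0.0918, or 0.0118 with the block). The catalytic subunits are Sec11a and Sec11c, which take each other's place in the enzyme. Sec11c averaged 149 ± 6.34 FPKM with CHIR99021 and 126 ± 10.7 FPKM with DMSO (limma adjusted p = 0.0906, or 0.0312 with the block). Sec11a averaged 82.8 ± 6.56 and 76.6 ± 12.7 FPKM, with overlapping groups (limma adjusted p = 0.571, 95% interval of the log2 change -0.19 to 0.43). Sec11c stood above Sec11a in all 6 libraries.

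Of the 9 oligosaccharyltransferase genes, 7 rose (77.8%) and 1 fell (11.1%), against 8.13% and 13.3% of all tested genes. The median log2 change of the 9 was 0.48, against -0.04 over all tested genes. The summed level of the 9 was 1092 ± 81.2 FPKM with CHIR99021 and 812 ± 71.5 FPKM with DMSO (SD, n = 3 each). Rpn1, Rpn2, Ddost and Dad1 are subunits of every form of the enzyme. Rpn1 had 94.6, 103 and 106 FPKM in CHIR99021 libraries, against 64.1, 65.1 and 74.0 FPKM in DMSO libraries (1.49-fold higher, log2 change 0.57 ± 0.09 SE, limma adjusted p = 0.00462). Rpn2 had 152, 164 and 175 FPKM in CHIR99021 libraries, against 112, 111 and 128 FPKM in DMSO libraries (1.40-fold higher, limma adjusted p = 0.0103). Ddost had 139, 135 and 144 FPKM in CHIR99021 libraries, against 93.0, 93.5 and 114 FPKM in DMSO libraries (1.39-fold higher, limma adjusted p = 0.0123). These 3 subunits were thus higher by factors of 1.39 to 1.49, and none of them had overlapping groups. Dad1, named for the cell death seen when it is defective, had 216, 205 and 253 FPKM in CHIR99021 libraries, against 168, 135 and 173 FPKM in DMSO libraries (1.42-fold higher, limma adjusted p = 0.0265). Ost4 and Tmem258, small subunits of the enzyme outside the list, did not pass the test (limma adjusted p = 0.900 and 0.474).

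Mammalian cells hold forms of the enzyme that differ in their catalytic subunit. STT3A works at the translocon on chains as they enter, and Ostc is the subunit of the list particular to that form. STT3B glycosylates sites that were passed over, together with an oxidoreductase subunit, MAGT1 or TUSC3. Stt3a (chr9:36732413-36767578) had 165, 149 and 181 FPKM in CHIR99021 libraries, against 100.2, 98.7 and 112 FPKM in DMSO libraries (1.59-fold higher, log2 change 0.66 ± 0.10 SE, limma adjusted p = 0.00365). Stt3b (chr9:115242582-115310421) had 127, 119 and 145 FPKM in CHIR99021 libraries, against 134, 128 and 149.8 FPKM in DMSO libraries (log2 change -0.08, 95% interval -0.32 to 0.16, limma adjusted p = 0.634). Stt3a was therefore the more abundant of the pair in every CHIR99021 library and the less abundant in every DMSO library. The ratio of Stt3a to Stt3b was 1.30, 1.25 and 1.25 in CHIR99021 libraries, against 0.745, 0.769 and 0.748 in DMSO libraries. The tested quantity was the log2 ratio of FPKM + 1, which was higher by 0.74 with CHIR99021, at 0.34 ± 0.03 against -0.40 ± 0.02 (SD, n = 3 each; exact permutation test, two-sided, p = 0.1, the smallest that 3 against 3 allows, and 0.133 adjusted over 4 pairs). Ostc had 132, 111 and 137 FPKM in CHIR99021 libraries, against 85.8, 77.4 and 91.8 FPKM in DMSO libraries (1.49-fold higher, log2 change 0.57 ± 0.11 SE, limma adjusted p = 0.0095). Krtcap2, a small subunit of the enzyme outside the list, had overlapping groups and did not pass the test (limma adjusted p = 0.622).

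Tusc3 and Magt1, the oxidoreductase subunits that take each other's place, were called in opposite directions. Tusc3 (chr8:39005867-39130817) had 16.4, 17.0 and 14.1 FPKM in CHIR99021 libraries, against 27.5, 19.7 and 24.6 FPKM in DMSO libraries, and was 1.51-fold lower (log2 change -0.56 ± 0.14 SE, limma adjusted p = 0.0259). Magt1 (chrX:105968085-106011899) had 25.5, 22.7 and 28.1 FPKM in CHIR99021 libraries, against 17.0, 17.4 and 20.9 FPKM in DMSO libraries, and was 1.38-fold higher (log2 change 0.45 ± 0.12 SE, limma adjusted p = 0.0330). Each CHIR99021 library held more Magt1 than Tusc3, and each DMSO library more Tusc3 than Magt1. The authors' limits lay 16.3% to 23.1% of the level away for Tusc3 and 7.41% to 11.1% for Magt1. The limits of both genes thus overlapped in DMSO libraries 2 and 3, where their order is uncertain. Such an order also rests on the scaling for transcript length. The ratio of Magt1 to Tusc3 was 1.55, 1.34 and 2.0 in CHIR99021 libraries, against 0.616, 0.882 and 0.848 in DMSO libraries, and the log2 ratio of FPKM + 1 was higher by 1.01 with CHIR99021, at 0.65 ± 0.28 against -0.36 ± 0.27 (SD, n = 3 each; exact permutation test, two-sided, p = 0.1, and 0.133 adjusted over 4 pairs). Both calls were sensitive to single libraries. Tusc3 was called with 1 of the 6 libraries left out only where that was DMSO replicate 2, its lowest DMSO library (adjusted p up to 0.105 otherwise), and Magt1 was called in 2 of those 6 fits.

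**Figure D3:**
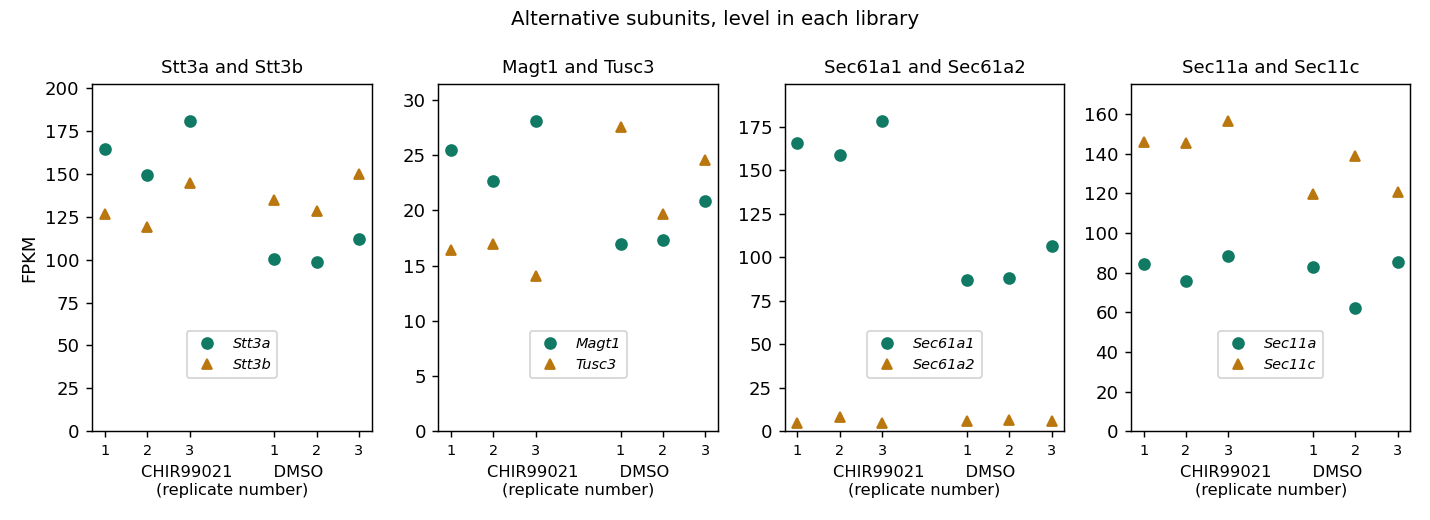
Level in FPKM (vertical axes from 0) of each pair of alternative subunits in CHIR99021 libraries (left in each panel) and DMSO libraries (right), by replicate number. Stt3a lies above Stt3b, and Magt1 above Tusc3, in the 3 CHIR99021 libraries and below it in the 3 DMSO libraries, while Sec61a1 and Sec11c lie above their partners in all 6. The authors' confidence limits are not drawn.

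For the other pairs the order was the same in both groups. The ratio of Sec61a1 to Sec61a2 was 34.4, 18.8 and 39.9 in CHIR99021 libraries, against 15.3, 13.9 and 19.0 in DMSO libraries, and CHIR99021 library 2 fell inside the DMSO range. As log2 ratios of FPKM + 1, where the low Sec61a2 is raised most by the added 1, the groups did not overlap, and the ratio was higher by 0.87 with CHIR99021 (exact permutation test, two-sided, p = 0.1, and 0.133 adjusted over 4 pairs) and by 1.13, 0.48 and 1.01 within replicate numbers 1, 2 and 3. That of Sec11a to Sec11c was 0.580, 0.520 and 0.564 in CHIR99021 libraries, against 0.692, 0.447 and 0.706 in DMSO libraries (difference in the log2 ratio of FPKM + 1 -0.12, exact permutation test, two-sided, p = 0.6, also 0.6 adjusted over 4 pairs).

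The glycan that the enzyme transfers is built on dolichol in the membrane. Of the 3 genes of the list for this work, 1 rose (33.3%) and 0 fell, against 8.13% and 13.3% of all tested genes. Alg2, a mannosyltransferase, had 11.2, 12.0 and 10.9 FPKM in CHIR99021 libraries, against 8.78, 7.77 and 8.40 FPKM in DMSO libraries (1.37-fold higher, log2 change 0.41 ± 0.10 SE, limma adjusted p = 0.0265). Alg2 and Sec61b lie head to head on chromosome 4, with 293 bases between them, and both were called higher. With 1 library left out, Alg2 was called in 1 of the 6 fits and Sec61b in 2. Alg5, which makes the lipid-linked glucose, had 18.8, 21.8 and 19.4 FPKM in CHIR99021 libraries, against 18.7, 13.2 and 17.2 FPKM in DMSO libraries (limma adjusted p = 0.181, 95% interval of the log2 change -0.03 to 0.60). Dpagt1, which starts the glycan, had 27.8, 23.2 and 25.4 FPKM in CHIR99021 libraries, against 23.2, 19.4 and 23.7 FPKM in DMSO libraries (limma adjusted p = 0.252, 95% interval -0.06 to 0.46).

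Around these 35 genes, 70 further genes of the same route were listed in 7 roles, also with earlier results known, and 68 were tested. Of these, 14 rose and 1 fell (20.6% and 1.47%, against 8.13% and 13.3% of all tested genes), with a median log2 change of 0.18. With the block 30 were higher and 2 lower, against 18.4% and 24.4% of all tested genes. With all libraries brought to one sum 4 of the 68 were higher and 1 lower, against 4.43% and 11.8% of all tested genes. With 1 library left out 3 to 9 were higher, fewest without CHIR99021 replicate 2 or 3. In those fits 328 (3.25%, without CHIR99021 replicate 3) to 708 of all 10096 tested genes were higher. Of the 15 called genes, Pmm1, Canx and Mpdu1 were called whichever single library was left out. Sugar donor synthesis had 4 of 10 genes higher and 0 lower. Its largest change was that of Pmm1, a phosphomannomutase on the way to GDP-mannose, with 56.4, 51.6 and 57.5 FPKM in CHIR99021 libraries, against 33.1, 32.0 and 35.5 FPKM in DMSO libraries (1.64-fold higher, limma adjusted p = 0.00156). Gfpt1, the rate-limiting enzyme of hexosamine synthesis, averaged 15.0 ± 1.37 FPKM with CHIR99021 and 9.22 ± 2.01 FPKM with DMSO (limma adjusted p = 0.0257), and Pgm3 of the same pathway averaged 6.63 ± 0.420 and 4.54 ± 0.713 (0.0455). Gmppa, which encodes a regulator of GDP-mannose synthesis, averaged 33.2 ± 2.44 FPKM with CHIR99021 and 25.8 ± 1.02 FPKM with DMSO (limma adjusted p = 0.0281).

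Among the 20 other genes for building the lipid-linked glycan, 2 rose and 1 fell (10% and 5%, against 8.13% and 13.3% of all tested genes). The share that rose thus lies near that of all tested genes. Alg10b, which adds the last glucose, averaged 16.9 ± 1.37 FPKM with CHIR99021 and 11.5 ± 0.567 FPKM with DMSO (1.46-fold higher, limma adjusted p = 0.0106), and Nus1, a subunit of the enzyme that makes the dolichol chain, averaged 29.9 ± 3.33 and 21.3 ± 0.259 (limma adjusted p = 0.0166). Mpdu1, needed to use lipid-linked mannose and glucose, went the other way, with 43.8, 41.3 and 38.6 FPKM in CHIR99021 libraries, against 64.9, 55.3 and 59.3 FPKM in DMSO libraries (1.45-fold lower, log2 change -0.53 ± 0.09 SE, limma adjusted p = 0.00697). Of 7 genes for glycan trimming and lectin chaperones, 3 rose (42.9%, against 8.13% of all tested genes), 0 fell and 4 did not pass. Those that rose were Canx, the chaperone calnexin (227.5 ± 23.7 FPKM with CHIR99021 and 164.5 ± 4.03 with DMSO, limma adjusted p = 0.0123), Man1b1 (adjusted p = 0.0239) and the glucosidase gene Mogs (0.0423). Calr, the most abundant of the 7, averaged 440 ± 20.8 FPKM with CHIR99021 and 466 ± 34.9 with DMSO and did not pass (limma adjusted p = 0.586).

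Among 6 tested genes of other targeting and translocation factors, 1 rose (16.7%, against 8.13% of all tested genes) and 0 fell. The gene that rose was H13, which encodes signal peptide peptidase (68.9 ± 5.75 FPKM with CHIR99021 and 47.6 ± 5.73 with DMSO, 1.45-fold higher, limma adjusted p = 0.0137). The signal sequence binding subunit of the particle has near-identical gene copies, between which counting could split reads, so its level is uncertain. Srp54a had 2.80, 2.14 and 5.02 FPKM in CHIR99021 libraries, against 2.40, 2.65 and 4.58 FPKM in DMSO libraries. Srp54c averaged 7.13 ± 0.311 FPKM with CHIR99021 and 6.10 ± 0.972 FPKM with DMSO (SD, n = 3 each), and Srp54b was at or near 0. Of 15 tested genes for the multipass translocon and the endoplasmic reticulum membrane protein complex, which insert proteins with several membrane spans, 4 rose (26.7%, against 8.13% of all tested genes) and 0 fell. Those that rose were Mmgt1, Ncln, Emc4 and Nomo1 (folds 1.23 to 1.40, limma adjusted p from 0.0235 to 0.0385). None of the 7 genes for tail-anchored protein insertion passed the test without the block. Nor did any of the 3 small oligosaccharyltransferase subunits Ost4, Tmem258 and Krtcap2. With the block 2 and 0 were higher and none lower, against 18.4% higher and 24.4% lower of all tested genes.

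**Figure D4:**
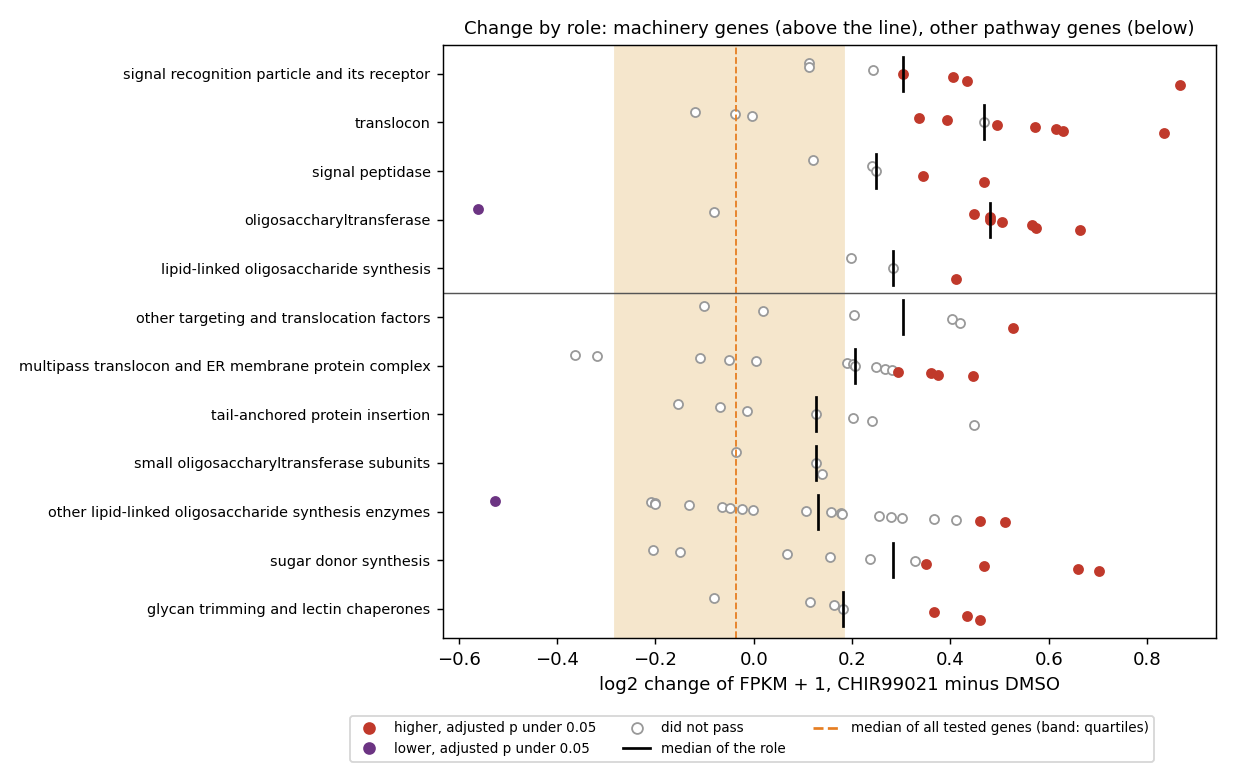
Log2 change of FPKM + 1 (CHIR99021 minus DMSO) of every tested gene by role; a bar marks each role's median, the dashed line the median of all tested genes and the band their quartiles, -0.28 and 0.18. The 5 role medians of the machinery genes lie at 0.25 to 0.48, and those of the 7 other roles at 0.13 to 0.30.

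Of 9 genes for regulators of secretion and endoplasmic reticulum stress, 5 rose and 0 fell, against 8.13% and 13.3% of all tested genes. Irf4, which drives plasma cell differentiation, had 73.6, 89.5 and 83.3 FPKM in CHIR99021 libraries, against 28.1, 31.6 and 31.7 FPKM in DMSO libraries (limma adjusted p = 0.000431). Prdm1, Bhlha15 and Ern1 also rose, by 2.58-fold to 3.02-fold, and these 4 kept their calls whichever single library was left out. Creb3l2 rose 1.64-fold (limma adjusted p = 0.0288), a call lost whenever 1 library was left out (0.0548 to 0.0885) and with all libraries brought to one sum. Ern1 encodes the stress sensor that splices Xbp1 RNA and had 6.38, 7.13 and 6.78 FPKM in CHIR99021 libraries, against 1.96, 2.81 and 1.94 FPKM in DMSO libraries. Xbp1 itself averaged 153 ± 7.01 FPKM with CHIR99021 and 129 ± 4.12 FPKM with DMSO (limma adjusted p = 0.0567, or 0.0172 with the block), and a gene level does not show how much of it was spliced. Atf6 and Atf4 did not pass the test (adjusted p = 0.223 and 0.829), and Ddit3, a stress-induced gene linked to cell death, averaged 26.6 ± 5.38 FPKM with CHIR99021 and 49.7 ± 20.6 FPKM with DMSO (0.0746, or 0.00584 and lower with the block).

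Cell type markers moved beside the machinery, and their part in its changes was not tested. For the counts below, 8.13% of all tested genes were higher and 13.3% lower, or 18.4% and 24.4% with the block. All 8 B cell markers fell, with a sum of 1631 to 1880 FPKM in CHIR99021 libraries, against 3336 to 4426 FPKM in DMSO libraries, and 7 of them kept their calls whichever single library was left out. Of 7 tested plasma cell markers, 3 rose (Irf4, Prdm1 and Slamf7) and 0 fell, and their sum overlapped between groups, at 508 to 633 FPKM with CHIR99021 and 506 to 788 FPKM with DMSO. Igj weighed most in that sum in every library, at 223 to 327 FPKM with CHIR99021 and 321 to 591 FPKM with DMSO. With the block Xbp1 was also higher and Igj lower (limma adjusted p = 0.0172 and 0.00134). Of 7 tested germinal centre markers, 2 fell (Bach2 and Fas) and 0 rose, and their sum was 118 to 127 FPKM with CHIR99021 and 138 to 145 FPKM with DMSO. Bach2 kept its call whichever single library was left out, while Fas lost it each time (limma adjusted p = 0.0513 to 0.107) and with each of the 3 other scalings. With the block Bcl6 was also lower and Gcsam higher (limma adjusted p = 0.00307 and 0.0189). Rgs13, a germinal centre marker, was listed at 0.431 FPKM or less in every library. Fibroblast markers, which a feeder cell could carry, summed to 273, 108 and 64.2 FPKM in CHIR99021 libraries, against 355, 127 and 84.9 FPKM in DMSO libraries. This sum was highest in replicate 1 of both groups and lower with CHIR99021 in each replicate number. Of the 6 tested fibroblast markers Thy1 fell and 0 rose. Thy1 did not follow the sum and was highest in replicate 3 of both groups (6.97 FPKM with CHIR99021 and 20.6 FPKM with DMSO). With the block 4 fell and 0 rose, Col1a2, Col3a1 and Fn1 being added (limma adjusted p = 0.00479, 0.00629 and 0.00472). Without replicate 1 in both groups, 9 of the 35 genes were higher and 0 lower, against 4.00% and 6.77% of all tested genes, a check chosen after the markers were seen. The T cell marker Cd3e and the myeloid markers Cd14 and Fcgr1 were at 0 in every library. Of the other T cell and myeloid markers tested, Cd28 rose, Itgam fell, and Cd2, Lck and Lyz2 did not pass, though Cd2 was lower with the block (limma adjusted p = 0.0039).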

How the data were processed

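The tools were TopHat2 2.1.1, Cufflinks 2.2.1 and cutadapt 1.12 on the build mm10, per the submitters' processing notes. No source used here gives the annotation, strand setting or scaling total. RNA from an RNeasy kit went into TruSeq Stranded mRNA libraries, per the labels' protocols. The authors deposited 1 table per library that, per the file headers, holds gene FPKM with lower and upper confidence limits. Summed FPKM was 527290 to 617449 per library, with 13418 to 14429 of 23850 entries above 0. The limits were 3.05% to 28.2% of the level away for the 35 genes, which covers single-library precision only. Fragment totals are not stated. Only 69.0% to 71.0% of low values came out within 0.02 of the whole fragments that the limits imply, so no count model was used.

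Genes with a mean FPKM of at least 1 (10096) were tested as log2(FPKM + 1) with limma 3.58.1 in R 4.3.3 (eBayes with a variance trend). Tests were two-sided, with Benjamini-Hochberg adjustment over all tested genes and a threshold of 0.05. Log2 changes understate those of low genes, and folds are ratios of mean FPKM. Log2 ratios of alternative subunits, taken of FPKM + 1, were tested by an exact permutation test over the 6 libraries (scipy 1.17.1). Tables and figures were handled in Python 3.11.15 (pandas 2.3.3, matplotlib 3.10.9), and the fit was tested on simulated data. Titles number replicates 1 to 3 in both groups, and same-numbered libraries deviated together from their group means over tested genes (correlations 0.535, 0.490 and 0.517), so a fit with the number as a block was set beside the other. No libraries were duplicates: any 2 shared at most 0.228% of their values.

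The 35 genes and all lists were chosen with earlier results of these data known. Named genes are the 35, the regulators, up to 4 genes per pathway role with the smallest adjusted p under 0.05, and markers or neighbours that touch a result. Of the 70 further pathway genes, 69 were found. Ost4, Tmem258, Krtcap2, Calr and the Srp54 copies were named outside that rule, after their values were seen. In all, 15 alternatives in pseudocount, limit on level, scaling, variance trend, block and libraries were run.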

Additional observations from a re-analysis of the deposited data

How the results depend on the processing

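None of the 22 called genes of the 35 changed direction under any of 15 alternatives, and the 36 recomputed subunit ratios kept theirs. Without a limit on level, 14 of the 35 genes were called, 14 higher and 0 lower. Calls over all genes also fell in both directions in that fit, to fewer than 821 higher, with more lower than higher. That fit tests a larger set of genes, so its counts are not shares of the 10096. All-gene calls higher numbered 1232 with quantile normalization and 447 with libraries scaled to one sum, against 821, so that 51.2%, 27.2% and 37.9% of calls were higher (52.3% with upper-quartile scaling); scaling to one sum left 5 further pathway genes called, 4 higher. With the replicate block, 4321 genes were called (1855 higher, 2466 lower), and 32 further pathway genes (30 and 2). Leaving out 1 library gave 1061 to 1983 called genes (328 to 708 higher, 733 to 1275 lower), 8 to 17 of the 35 (8 to 17 higher, 0 to 1 lower) and 4 to 11 further pathway genes (3 to 9 higher, 1 to 2 lower). Leaving out replicate number 1 in both groups, chosen after seeing the data, gave 1088 (404 and 684), 9 of the 35 (9 and 0) and 5 pathway genes, 4 higher. Uncalled log2 changes near 0 turned. Sec61a2 (-0.04) was 0.0233 with upper-quartile scaling, 0.0319 with quantile normalization, -0.286 to 0.107 with 1 library left out and 0.0424 without replicate number 1. Ssr4 (0.00) was 0.0696, 0.0373, -0.168 to 0.154 and 0.0750 in the same order. Atf4 (-0.04) was 0.0389, 0.0117 and -0.0960 to 0.0274 in the first 3, and Sec11a (0.12) was -0.0222 to 0.204 with 1 library left out. The causes were not tested, and 3 against 3 libraries allow no exact p under 0.1.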
